A study of Mus musculus with 6 samples.

Results

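Linker histone H1 genes were examined in RNA from mouse RPE/choroid, that is, the retinal pigment epithelium with its underlying vascular coat. The genes were chosen by symbol from a fixed list, and all 7 were present among the 33924 genes of the deposited table. They are Hist1h1a, Hist1h1b, Hist1h1c, Hist1h1d and Hist1h1e, the replication-dependent genes of the histone cluster, and H1f0 and H1fx, the replacement genes that lie outside it.

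The libraries came from 3 young and 3 aged C57BL/6J mice, all labelled male, although the study's methods name both sexes, with 2 eyes per sample and no treatment or genetic change. Young mice were labelled 1 to 2 months old, and the study's methods give a slightly older range for them. Aged mice were labelled 20 to 24 months in the titles and 22 to 24 months in the time label. The tissue was scraped from the eyecup after the retina had been lifted off, ribosomal RNA was removed, and no poly(A) selection was made, so that histone mRNAs without a tail could be read. The study asked how histone expression differs between the ages. The table, however, gives for each gene only 1 mean over all 6 libraries that is not part of the authors' own comparison. Every level below is that authors' mean normalized count, young and aged libraries together. No value per mouse or per age group was analysed here, so no SD and no test can be given, the difference with age is not reported, and whether neighbours in the order of levels differ beyond the spread between mice is unknown.

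Linker histones bind the nucleosome where DNA enters and leaves it and help to pack the chromatin fibre. Mammals carry several subtypes with a shared globular domain and variable tails. The replication-dependent genes are transcribed mainly while DNA is copied, and their mRNAs end in a conserved stem-loop, bound by the stem-loop binding protein, in place of a poly(A) tail. Replacement genes are transcribed outside S phase and give polyadenylated mRNAs. H1f0 is known as the linker histone of differentiated and resting cells, and the RPE of adult mice is largely non-dividing.

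Promoter sequences of the 2 kinds of gene are shown first. All 7 genes were matched to RefSeq promoters (GRCm38.p6), each of 300 bases, 250 before and 50 after the annotated start. The windows below run from 135 bases before the start to the last base before it, 5′ to 3′ on the strand of the gene. Capitals mark 3 motifs, searched on both strands: the H1 box (AAACACA), the CCAAT box (CCAAT) and a TATA box (TATANA). TATA matches can overlap each other, as the reverse complement of the motif also fits these stretches. The motifs were chosen with the sequences in view. The clustered genes are printed because the boxes recur in them at like places, and H1f0 is printed for contrast.
Hist1h1c (RefSeq H1f2), chr13:23738672-23738806, plus strand: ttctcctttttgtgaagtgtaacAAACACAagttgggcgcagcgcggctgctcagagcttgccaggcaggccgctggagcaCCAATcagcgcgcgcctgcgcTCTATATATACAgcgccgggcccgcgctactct
Hist1h1e (RefSeq H1f4), chr13:23622559-23622693, minus strand: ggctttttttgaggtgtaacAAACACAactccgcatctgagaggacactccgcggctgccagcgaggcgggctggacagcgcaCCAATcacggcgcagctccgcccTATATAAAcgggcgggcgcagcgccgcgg
Hist1h1d (RefSeq H1f3), chr13:23554897-23555031, plus strand: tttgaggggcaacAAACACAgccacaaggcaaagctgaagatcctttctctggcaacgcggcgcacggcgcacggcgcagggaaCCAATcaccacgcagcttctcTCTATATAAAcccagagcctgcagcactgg
Hist1h1a (RefSeq H1f1), chr13:23763533-23763667, plus strand: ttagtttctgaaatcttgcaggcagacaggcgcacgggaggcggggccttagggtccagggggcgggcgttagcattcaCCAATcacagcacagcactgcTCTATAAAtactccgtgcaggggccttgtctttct
Hist1h1b (RefSeq H1f5), chr13:21780626-21780760, minus strand: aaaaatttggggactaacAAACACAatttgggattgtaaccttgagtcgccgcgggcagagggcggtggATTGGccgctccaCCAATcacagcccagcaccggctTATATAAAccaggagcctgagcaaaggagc
H1f0 (RefSeq H1f0), chr15:79028077-79028211, plus strand: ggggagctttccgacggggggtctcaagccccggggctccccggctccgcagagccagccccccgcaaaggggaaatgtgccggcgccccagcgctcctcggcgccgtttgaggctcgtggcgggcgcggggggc

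Positions below count from the annotated start as 0, with negative values before it. The H1 box was present in 4 of the 5 clustered genes, with its first base between positions -122 (Hist1h1d) and -112 (Hist1h1c). Hist1h1a was the clustered gene without a match. A CCAAT box began between positions -66 and -51 in all 5, and a TATA box between -35 and -26 in all 5. Hist1h1b held a further CCAAT box at -168, and Hist1h1d further TATA matches at -153 and -145. H1f0 and H1fx held 0 matches to these 3 motifs in the whole 300 bases around their RefSeq starts. Each had 1 GC box (GGGCGG) there, and Hist1h1a, Hist1h1b and Hist1h1e also held this motif. GENCODE starts H1f0 at 79028450, against 79028212 in RefSeq, and H1fx at 87981637, against 87981482. The searched bases of H1f0 end at 79028261, so those just before its GENCODE start were not searched. Whether the boxes lie there is unknown. The replacement promoters were richer in G and C, with 225 of the 300 bases in H1f0 and 233 in H1fx, against 137 to 163 in the clustered genes.

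Over all 32851 RefSeq promoters of this length, the H1 box occurred in 7.18%, the CCAAT box in 37.4%, the TATA box in 24.7% and the GC box in 35.7%. An H1 box, a CCAAT box and a TATA box in this order before the start occurred in 62 promoters (0.189%). Hist1h1b, Hist1h1c, Hist1h1d and Hist1h1e accounted for 4 of the 62, and Hist1h1t, the testis gene of the same cluster, was another (RefSeq H1f6). The core histone genes H2ac1 and H2bc14 (RefSeq symbols) were also among the 62, so the order was not limited to linker histone genes. A match of letters describes the sequence and does not show that a factor binds there.

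**Figure D1:**
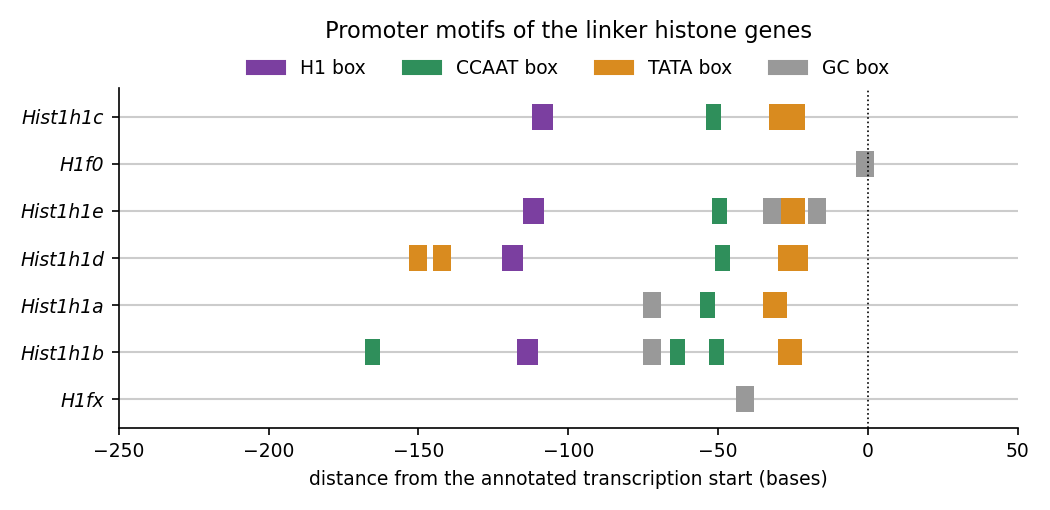
Matches to 4 motifs in the promoters of the 7 linker histone genes, ordered by level, against the distance in bases from the annotated start (dotted line at 0). The H1 box begins between -122 and -112 in Hist1h1b, Hist1h1c, Hist1h1d and Hist1h1e, the CCAAT and TATA boxes recur in all 5 clustered genes, and H1f0 and H1fx hold a GC box alone.

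The stem-loop at the other end of the transcript was examined next. It was searched after the stop codon of the GENCODE transcripts (release M21, GRCm38) by its consensus of 16 bases. The sites are printed with up to 6 bases on each side and the stem-loop in capitals, because this element is the one known from tailless histone mRNA.
Hist1h1c, chr13:23739506-23739533, plus strand: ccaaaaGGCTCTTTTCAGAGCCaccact
Hist1h1d, chr13:23555781-23555808, plus strand: tcaaacGGCTCTTTTCAGAGCCacccac
Hist1h1e, chr13:23621776-23621803, minus strand: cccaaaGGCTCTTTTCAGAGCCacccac
Hist1h1a, chr13:23764386-23764406, plus strand: cccaacGGCTCTTTTCAGAGC

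The same 16 bases stood in Hist1h1c, Hist1h1d and Hist1h1e, beginning 24, 31 and 40 bases after the stop codon. In Hist1h1a the annotated transcript ended on base 15 of the motif, 1 base short of it. The transcript of Hist1h1b stopped at its stop codon and left 0 bases to search. H1f0, with 1198 bases after its stop codon, and H1fx, with 369, held 0 matches, and 0 also when 1 base was allowed to differ. Each of these replacement transcripts had a polyadenylation signal (AATAAA or ATTAAA) near its end, beginning 22 bases before it in H1f0 and 21 in H1fx. Such a signal did not set these genes apart, as the GENCODE transcript of Hist1h1c also had one 26 bases before its end and that of Hist1h1d one 203 bases before. Among the other protein-coding genes with at least 16 bases after the stop codon, 62 of 21063 (0.294%) held the motif in full. This set includes 47 clustered core histone genes with enough bases to search, of which 42 (89.4%) held it.

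All 7 genes were annotated with 1 exon and 1 transcript. The 5 clustered genes lay within 1985 kb of chromosome 13 that also hold core histone genes. Their GENCODE positions (GRCm38) were chr13:21779883-21780625 on the minus strand for Hist1h1b, chr13:23553262-23560686 on the plus strand for Hist1h1d, chr13:23620629-23622558 on the minus strand for Hist1h1e, chr13:23738808-23740367 on the plus strand for Hist1h1c and chr13:23763666-23764406 on the plus strand for Hist1h1a. H1f0 lay at chr15:79028450-79030504 on the plus strand, and H1fx at chr6:87980421-87981637 on the minus strand. Their coding parts were alike in length, from 564 bases in H1fx to 669 in Hist1h1b. In sequence the clustered genes were closest to each other, with an identity of the coding bases of 68.5% to 84.0% over 10 pairs. Hist1h1d and Hist1h1e were the closest pair, and Hist1h1a and Hist1h1c the least alike. H1f0 shared 51.5% to 55.02% of bases with the clustered genes and H1fx 47.6% to 50.6%. H1f0 and H1fx were no closer to each other, at 47.3%.

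The level of the 7 genes spanned 234-fold, and both kinds of gene had members at the top and far below. Hist1h1c had the highest mean, with 2733 normalized counts. H1f0 came next with 1232 normalized counts, and Hist1h1e followed with 925. These 3 genes together held 86.0% of the summed level of the family. H1f0 stood between Hist1h1c and Hist1h1e in normalized counts, but below both per kilobase of RefSeq gene span. The table held 26681 genes above 0, with a median of 82.1 normalized counts. Among them Hist1h1c stood at percentile 94.8, H1f0 at 85.7 and Hist1h1e at 81.3.

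The other clustered genes were lower. Hist1h1d had 408 normalized counts (percentile 68.4), Hist1h1a 253 (percentile 61.5) and Hist1h1b 122 (percentile 53.4). The 5 clustered genes thus differed 22.4-fold among themselves and were all above the median of genes above 0. Among the 17975 genes with 10 or more normalized counts, whose median was 354, Hist1h1c, Hist1h1e and Hist1h1d stood at percentiles 92.2, 72.2 and 53.1, but Hist1h1a and Hist1h1b stood below the median, at 42.8 and 30.9. Hist1h1c alone was 1.60 times the sum of the other 4, or 61.5% of the clustered total.

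H1fx was the lowest of the 7, with 11.7 normalized counts, at percentile 34.0 of genes above 0. It stood 106-fold below H1f0, the other replacement gene, and 49.0-fold per kilobase of RefSeq gene span or 62.6-fold per kilobase of GENCODE exon length. In the annotation its exon overlaps 213 exonic bases of the antisense gene Gm5577 (18.1 normalized counts) and 24 bases of the microRNA gene Gm47286 on its own strand. The library kit keeps strand, but the sources used here do not state whether strand was used in counting, so reads of H1fx and Gm5577 may not be told apart.

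**Figure D2:**
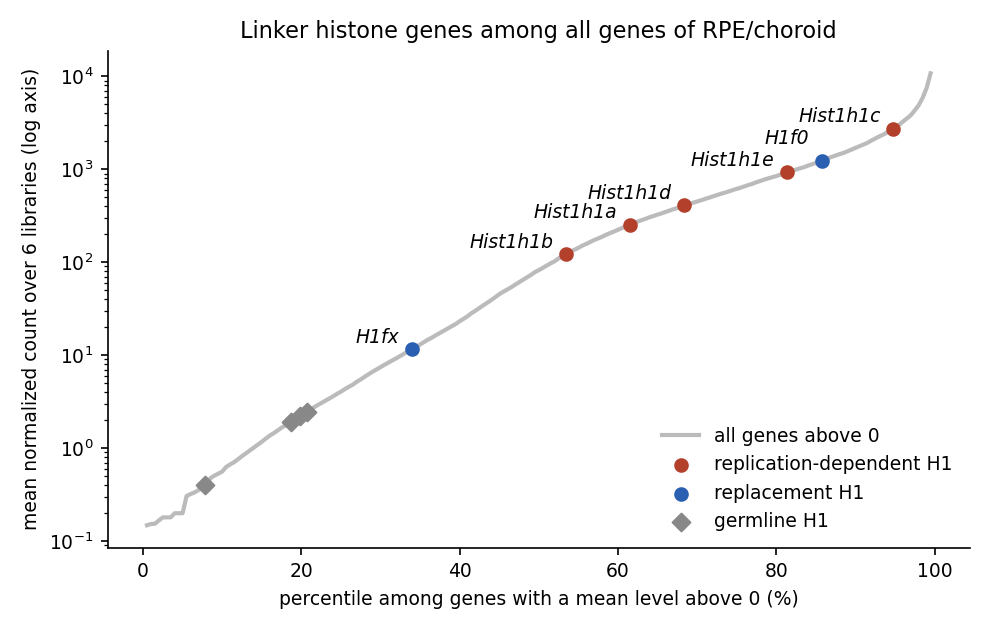
Mean normalized count over the 6 libraries (log axis) against the percentile among the 26681 genes above 0, for the 7 linker histone genes, 4 germline linker histone genes (diamonds) and all genes (grey line). Hist1h1c, H1f0 and Hist1h1e lie between percentiles 81.3 and 94.8, H1fx at 34.0, and the germline genes at or below 20.8.

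Germline linker histones served as a low reference. Hist1h1t and Hils1, of the testis, H1fnt, of spermatids, and H1foo, of the oocyte, are not known as genes of the eye. Their levels were 2.48 for Hist1h1t, 2.21 for H1foo, 1.93 for Hils1 and 0.399 for H1fnt, in normalized counts. All 7 linker histone genes examined lay above these 4, H1fx by the least. The 4 germline genes made up 0.123% of the level of the 11 linker histone genes. Of 6 germ cell markers 4 were under 10 normalized counts, and Sycp3 was the highest at 26.0.

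Summed over genes, replication-dependent transcripts made up 78.1% of the linker histone level, with 4441 normalized counts against 1244 for the replacement genes. H1f0 alone carried nearly all of the replacement part, at 21.7% of the family, and H1fx 0.205%. Without Hist1h1c the replication-dependent share was 57.9%, and without H1f0 it was 99.7%.

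**Figure D3:**
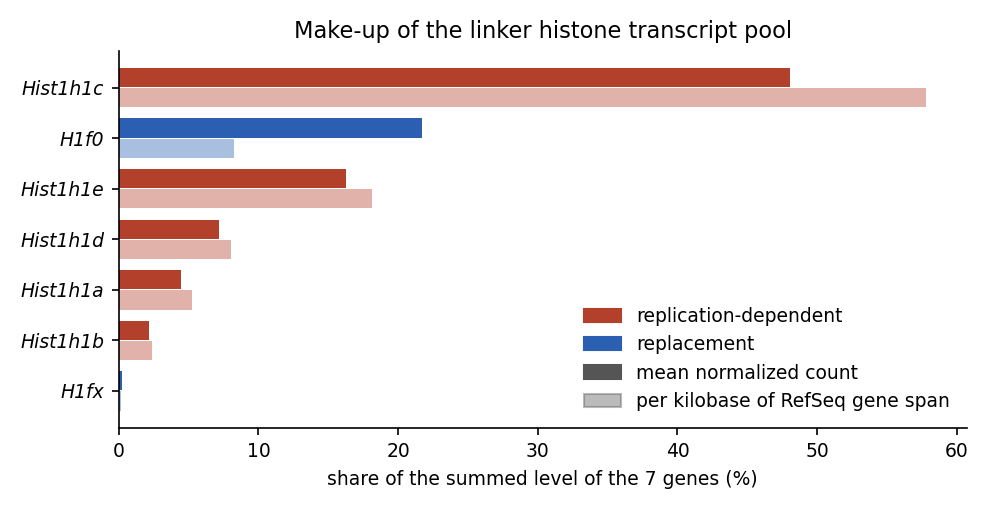
Share of each gene in the summed level of the 7 linker histone genes, in percent, as mean normalized counts (solid bars) and per kilobase of RefSeq gene span (pale bars). Hist1h1c holds 48.1% and 57.8%. H1f0 holds 21.7% and 8.24%, with a RefSeq span of 2293 bases against 725 to 794 in the clustered genes, and 17.6% per kilobase of GENCODE exon length, which is not plotted.

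Whether the deposited values still scale with transcript length is not known, since the authors derived them from TPM, a unit of abundance scaled to transcript length. Levels were therefore also divided by length, which would correct a second time if length had already been taken out. The length of these transcripts depends on the annotation. Per kilobase of coding sequence the order was the same as for normalized counts, from 4298 for Hist1h1c, 2118 for H1f0 and 1408 for Hist1h1e down to 615 for Hist1h1d, 396 for Hist1h1a, 182 for Hist1h1b and 20.7 for H1fx. Per kilobase of the gene span in RefSeq, in which H1f0 covers 2293 bases and the clustered genes 725 to 794, Hist1h1e (1183) stood above H1f0 (537), and H1f0 was close to Hist1h1d (526). On that scale the replication-dependent share was 91.6%. Per kilobase of GENCODE exon length Hist1h1d fell to place 6, with 54.9, because its transcript is annotated with 7425 bases. Hist1h1c was first and H1fx last on all 3 scales.

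**Figure D4:**
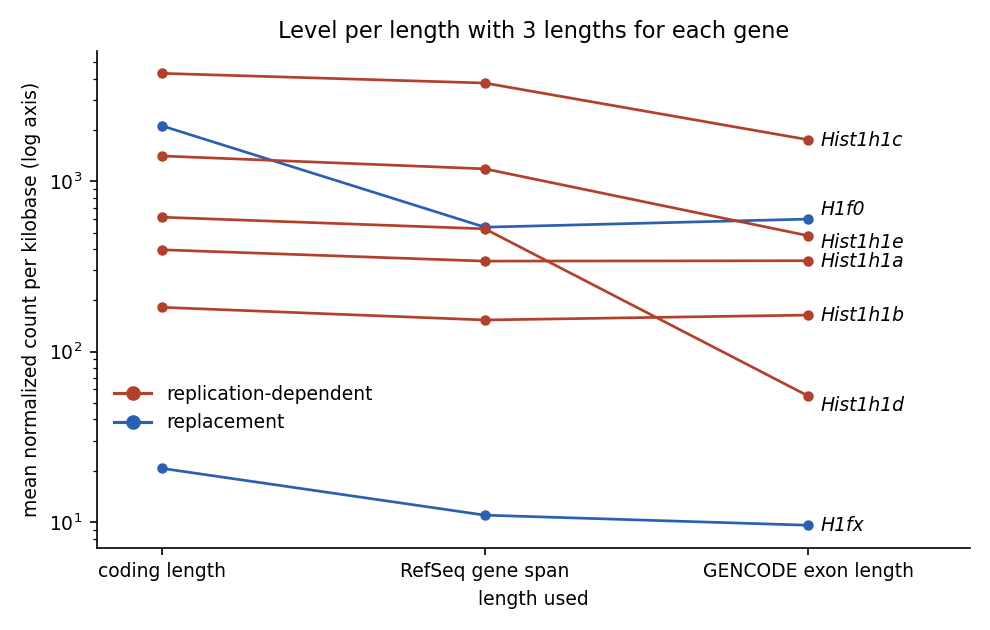
Mean normalized count per kilobase (log axis) of the 7 linker histone genes with each of 3 lengths. Hist1h1c leads and H1fx is last with every length, H1f0 drops from 2118 per kilobase of coding sequence to 537 per kilobase of RefSeq gene span, and Hist1h1d drops to 54.9 per kilobase of GENCODE exon length.

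How far reads can be assigned to 1 gene was judged from stretches of 31 bases that occur in no transcript of another gene. H1f0 and H1fx had 100% of their stretches to themselves, Hist1h1a 99.7% and Hist1h1b 96.1%. The 3 most similar genes shared more. In the coding part the share was 71.1% for Hist1h1c, 69.2% for Hist1h1e and 65.2% for Hist1h1d. Over the whole transcript Hist1h1c shared 9.87% of its stretches with Hist1h1d, and Hist1h1e had 65.3% of its stretches to itself. It shared 24.5% with Hist1h2be, within whose exons the last 496 bases of its annotated exon also lie on the same strand, 15.3% with the overlapping pseudogene Gm11398 (135 normalized counts) and 8.89% with Hist1h1d, and a stretch can be shared with several genes. Hist1h2be, a core histone gene, had 453 normalized counts. The stretches were compared on the same strand only. The exon of H1f0 overlaps the antisense gene Gm49544 by 163 exonic bases, so if strand was not used in counting, reads there could not be told apart either.

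The table held 63 core histone genes with cluster symbols, of which 51 reached 10 normalized counts. Their median was 64.8 normalized counts, and that of the 5 clustered linker genes was 408. Per kilobase of coding sequence the medians were 191, over the 61 core genes with a coding length, and 615. In normalized counts Hist1h1c was the highest of all 68 clustered histone genes, above Hist1h2bc, the highest H2B gene (2068), and Hist1h4c, the highest H4 gene (1767). Hist1h1e was in place 6, Hist1h1d in place 9, Hist1h1a in place 17 and Hist1h1b in place 25. Per kilobase of coding sequence Hist1h1c was in place 4, below Hist1h4c (5718), Hist1h2bc (5471) and Hist1h4d (4694), Hist1h1e was in place 7, Hist1h1d in place 18, Hist1h1a in place 23 and Hist1h1b in place 36 of 66. Linker genes made up 25.1% of the level of the clustered histone genes, and 15.3% per kilobase of coding sequence, over the genes with a coding length. How far reads can be assigned to single core histone genes was not examined. If core genes share reads, the core medians and the places given above depend on how those reads were divided. The same holds for the levels of the neighbouring core genes below.

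In 4 of the 5 clustered genes the nearest protein-coding gene was an H3 gene, which had fewer normalized counts than the linker gene each time. Hist1h3e, 848 bases from Hist1h1d, had 323 normalized counts against 408. Hist1h3c, 4606 bases from Hist1h1c, had 97.9 against 2733. Hist1h3a, 1280 bases from Hist1h1a, had 81.0 against 253, and Hist1h3i, 2335 bases from Hist1h1b, had 52.0 against 122. Per kilobase of coding sequence Hist1h3e stood above Hist1h1d, at 792 against 615, and the other 3 H3 genes stood below their linker neighbours. Beside Hist1h1e, apart from the genes that overlap it, the nearest was the H4 gene Hist1h4d, 37894 bases away, which was higher, with 1450 normalized counts against 925.

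Genes that make histone mRNA, handle linker histones or bind chromatin are given as context. All 13 factors of histone mRNA synthesis and processing were above 10 normalized counts, from 17.2 for Zfp473 to 1423 for Sympk, a scaffold of the cleavage complex. Slbp, which binds the stem-loop, had 633 normalized counts. Npat, the coactivator of clustered histone genes, had 848, and Lsm11, a subunit of the U7 particle that guides cleavage of the mRNA end, had 265. H1f0 was exceeded by 2 of the 13 (Cpsf2 and Sympk) and Hist1h1c by 0. A list of 9 genes held chaperones and competitors of linker histones and other chromatin proteins. Among these 9, Nasp, a histone chaperone, had 618 normalized counts, and Hmgn1, a nucleosome-binding protein, 4204. Cbx5, the heterochromatin protein, had the highest level, 6334, and Hmgb2 the lowest, 113.

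The cell types that supply these transcripts cannot be told from tissue RNA, in which cell number and RNA per cell are mixed. RPE markers ran from 69.8 for Best1 to 99321 normalized counts for Ttr, with Rpe65 at 43745. Pigment genes listed as melanocyte markers ran from 7838 for Mlana to 89145 for Dct. The RPE is itself pigmented, so these values cannot be given to melanocytes alone. Rod genes were present too, with Sag at 13165 normalized counts. Fibroblast markers reached 45848 and endothelial markers 6377. Of the 7 proliferation markers, Pcna was the highest at 1039 normalized counts, below H1f0, and Mki67 had 288. Their part in the level of the replication-dependent genes was not tested.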

How the data were processed

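Total RNA of RPE/choroid from 3 young and 3 aged mice was sequenced after ribosomal RNA removal. The authors trimmed reads with BBDuk, mapped them with STAR to Ensembl transcripts (GRCm38), estimated TPM with Sailfish, transformed these to normalized counts by total count and ran DESeq2. The deposited signal used here is baseMean, the authors' mean normalized count over all libraries. The other 5 value columns hold the authors' own comparison of the ages (log2 fold change, its error, statistic, p-value and adjusted p-value) and were not used. Depth per library is unknown here. Whether the values still scale with length is not stated. In the table, the median level of protein-coding genes with 10 or more normalized counts rose from 264 in the lowest quartile of transcript length to 952 in the highest.

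Levels were divided by lengths from GENCODE M21 or RefSeq (GRCm38.p6), which may differ from the Ensembl annotation the authors used. Stretches of 31 bases were compared with all GENCODE transcripts on the same strand. Coding sequences were aligned globally with Biopython 1.88, run under Python 3.11.15. Motif and stretch searches were tested on simulated sequences. Named are all 7 members, the 4 germline genes, and genes of fixed context and marker lists. The members, lists and motifs were chosen with earlier results of these data known.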

Additional observations from a re-analysis of the deposited data

How the results depend on the processing

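No paired analysis was possible because a single mean over the 6 libraries is given per gene. For the same reason the test of the age difference, the fits leaving out each library, and the other tests, filters and pseudocounts planned for it were not run. The main value of each result is listed wherever it moved. The cause of each move was not tested beyond the change of length or genes that makes it. The ratio of the highest to the lowest gene per kilobase of coding sequence was 208, with 183 per kilobase of total exon length or of the longest transcript, and 343 per kilobase of RefSeq gene span. The share of Hist1h1c was 48.1%, with 48.02% when germline genes were added, 47.6% per kilobase of coding sequence 57.8% per kilobase of RefSeq span and 51.5% per kilobase of exon length. The replication-dependent share of 78.1% became 76.3% per kilobase of coding sequence, 82.1% per kilobase of exon length, 91.6% per kilobase of RefSeq span, 57.9% without Hist1h1c and 99.7% without H1f0. The median percentile of the 7 genes was 68.4 and, among genes at 10 or more, 53.1. On that change H1f0 went from 85.7 to 78.8, Hist1h1a from 61.5 to 42.8, Hist1h1b from 53.4 to 30.9 and H1fx from 34.0 to 2.05. The median share of stretches held by no other gene was 96.5%, with 100% for stretches of 75 bases, 97.03% against the 7 genes alone and 95.6% in the coding part. Stem-loop matches rose from 3 genes to 4 when 1 base could differ. The scales with RefSeq span, the shares per exon length and the coding-part stretches were added after the data had been seen.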

Other observations

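The ends of the clustered transcripts differ between annotations. In RefSeq, Hist1h1c ends 4 bases after the stem-loop, and Hist1h1a, Hist1h1d and Hist1h1e end 5 bases after it. The GENCODE transcripts of Hist1h1c, Hist1h1d and Hist1h1e run on for 840, 4884 and 1153 bases beyond the stem-loop. Their whole lengths are 2.15, 9.57 and 2.47 times the RefSeq spans, and in Hist1h1d the GENCODE transcript also starts further upstream, at 23553262 on chromosome 13 against 23555032 in RefSeq. Hist1h1c has a further polyadenylation signal 26 bases before its GENCODE end, where H1f0 and H1fx have theirs at 22 and 21 bases. For Hist1h1b the order is turned, since the GENCODE transcript ends with the stop codon and RefSeq adds 51 bases. Which end the reads of these libraries reach cannot be read from 1 value per gene.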
